A study of Danio rerio with 3 samples.

Results

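The comparison described here is that of zebrafish embryos after Z-REX with HDE against non-treated embryos, by RNA-seq of 1 library each. Genes entered it if their counts averaged 10 or more over the 3 libraries of the series, as those of 18563 of the 31950 genes in the count table did. In Z-REX, embryos express Keap1 fused to a Halo domain, a caged precursor of an electrophile binds that domain, and light then frees the electrophile beside Keap1. HDE (4-hydroxydodecenal) is a lipid-derived aldehyde with a longer carbon chain than HNE (4-hydroxynonenal), the electrophile of the remaining library. All 3 groups came from *Tg(lyz:TagRFP)* embryos, whose neutrophils are marked by a red fluorescent protein, injected at the 1–4-cell stage with mRNA of Halo-TEV-Keap1, and each library was made from pooled whole embryos. By the labels, embryos were kept in the dark with a precursor at 1 μM for 30 h, rinsed, exposed to light of 365 nm at 0.5 mW per square centimetre for 3 min and collected 1.5 h later. That dose is given for the HNE precursor, and no dose is given for HDE. The same treatment text stands on all 3 libraries, the non-treated one included, and it does not say whether the non-treated embryos saw the light. In other experiments of the study, non-treated embryos and embryos given light alone are listed as separate groups, and no library of light alone was used here, so light and electrophile cannot be told apart. The labels also number the Keap protein differently for each library, and the construct name of the methods is used here.

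Keap1 holds the transcription factor Nrf2 in the cytosol and marks it for destruction, and electrophiles that modify cysteines of Keap1 let Nrf2 reach the nucleus. There Nrf2 and small Maf proteins bind the promoters of genes for glutathione synthesis, conjugation and carbonyl reduction, where Bach1 competes with them. Embryos of this age have beating hearts, circulating primitive red cells and differentiated trunk muscle, and they feed on lipid and protein exported from the yolk.

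The libraries held 15084294 counts after HDE, 17704410 after HNE and 17996111 in the non-treated embryos. For each gene an exact binomial test, two-sided, set the counts of one library against those of another at their TMM-normalized sizes, and p-values were adjusted over all genes tested. A gene was called at an adjusted p under 0.05 and a difference of at least 1.5-fold, where the ratio is that of normalized counts, HDE over non-treated. Such a test compares these libraries and not the conditions, and the 95% Clopper-Pearson intervals of the ratios cover counting error only. By this rule 515 genes (2.77% of those tested) were higher after HDE and 276 (1.49%) were lower. Scaled by total counts in place of TMM, 705 genes were higher and 192 lower, so that the share of higher genes among those called was 78.6% in place of 65.1%. The median log2 ratio over all tested genes was 0.01. Of the calls, 68 fell on genes with fractional counts, whose reads the counting divided between genes, and these are named below as uncertain. With an assumed spread between libraries, a biological coefficient of variation of 0.2, edgeR's exact test called 16 genes in place of 791, of which 11 had whole counts. These were *zgc:92137*, *cry5*, *cyp1a*, *crtac1a*, *lonrf1l*, *cry1a*, *abhd4*, *per2*, *egln3* and *si:dkey-85k7.7*, all higher after HDE, and *her4.4*, which was lower. Against the HNE library, 427 genes (2.30%) were higher after HDE and 224 (1.21%) were lower. Of the 515 genes higher than in the non-treated library, 159 were also called higher than after HNE and 7 lower. Of the 276 lower genes, 73 were also called lower than after HNE and 3 higher. Both contrasts share the HDE library, so genes picked for a high or low HDE count are favoured to be called the same way in both. Such counts, here and among the genes ranked below, are therefore no independent evidence. The markers sought for 15 cell types made 39 entries, a hatching gland marker being entered once for each gene of its name. Of these entries 37 passed the filter, and each of the 15 types had at least 1 of them. No marker was called higher, and the muscle actin gene *acta1b* and the hatching enzyme gene *he2* were called lower. The liver marker *fabp10a* had 0 counts after HDE, 1 after HNE and 0 in the non-treated library, where a count of 0 allows up to 3 counts.

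**Figure D1:**
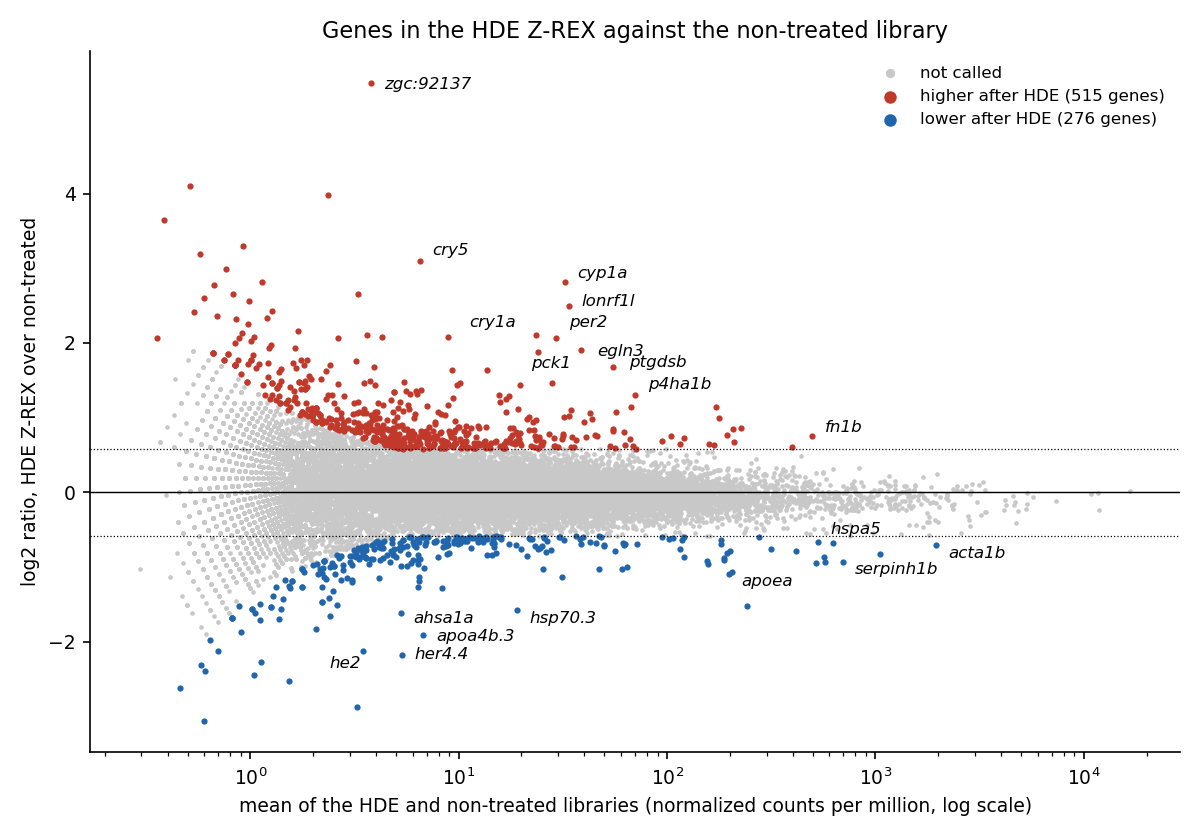
Each point is a gene, plotted by its mean level in the HDE and non-treated libraries (normalized CPM, log scale) and its log2 ratio, HDE Z-REX over non-treated, with dotted lines at 1.5-fold. The 515 genes called higher are red and the 276 called lower are blue, and zgc:92137, at 0 counts in the non-treated library, is drawn at its lower bound against 3 counts.

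Among genes with whole counts and at least 50 counts in the higher library, the 20 largest rises were led by *zgc:92137* (ENSDARG00000009443), named amy2al2, an amylase-like gene, in the reference table. It had 118 counts after HDE, 80 after HNE and 0 in the non-treated library, at least 44.9-fold higher after HDE against a floor of 3 counts. The photolyase gene *cry5*, the P450 gene *cyp1a*, the cartilage acidic protein gene *crtac1a* (88 counts after HDE and 146 after HNE, against 16 in non-treated embryos), the RING finger gene *lonrf1l* and the clock genes *cry1a* and *per2* followed. The others were the lipid hydrolase gene *abhd4* (ratio 4.22), the chitinase family gene *chia.6* (4.21), the complement gene *C7 (2 of 2)* (4.18), the HIF prolyl hydroxylase gene *egln3*, *si:dkey-85k7.7* (3.69), the Fgf receptor-like gene *fgfr1bl* (3.38, for the first of 2 genes listed under the name), *ssbp2* (3.25), the LC3-like autophagy gene *CR847510.1* (3.21), the prostaglandin D synthase gene *ptgdsb*, *lonrf1*, the DNA damage sensor gene *ddb2*, the neuropeptide gene *gnrh2* (2.85) and *si:ch211-281l24.3* (2.8). Of the 20, 6 were called higher than after HNE and 2 lower. The most abundant of these genes by count was *ptgdsb* (ENSDARG00000027088), with 1291 counts after HDE and 1784 after HNE, against 460 in non-treated embryos, with a 3.2-fold difference between HDE and non-treated (95% interval 2.88 to 3.57). Its level after HDE was 0.818 times that after HNE, a difference under 1.5-fold. The 20 largest falls among such genes ran from *her4.4*, a target of Notch, at a ratio of 0.221 to *zgc:172253* at 0.468. They held 3 hsp70 genes and the Hsp90 cochaperone gene *ahsa1a*, the apolipoprotein gene *apoa4b.3*, the hatching enzyme gene *he2*, and, each with at most 75 counts in the non-treated library, the fucosyltransferase gene *FUT9 (10 of 14)* (0.316), the integrin gene *itga2.3* (0.352), the neurokinin receptor gene *tacr1a* (0.374) and the cerebellin gene *cbln2b* (0.441). The nucleotide sugar enzyme gene *GDPGP1* (0.36) and 8 genes with no descriptive name, among them *si:dkey-247k7.2* (0.398) and *zgc:152951* (0.415), also belonged there. Of the 20 falls, 8 were called lower than after HNE.

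Of 33 light-responsive and clock genes, 11 were called higher after HDE and 0 lower, where 2.77% of all genes were higher, with a median log2 ratio of 0.46. *cry5* (ENSDARG00000019498), which encodes a photolyase that repairs ultraviolet lesions of DNA, had 180 counts after HDE and 284 after HNE, against 24 in non-treated embryos, with a ratio of 8.56 (95% interval 5.57 to 13.7). *per2* (ENSDARG00000034503), a light-induced repressor of the clock, had 736 counts after HDE and 1245 after HNE, against 200 in non-treated embryos, with a ratio of 4.2 (3.59 to 4.93). In both genes the HDE value lay far above the non-treated one and below the HNE one, the ratio of HDE to HNE being 0.716 for *cry5* and 0.668 for *per2*. *cry1a*, a second light-induced clock repressor, had 592 counts after HDE and 815 after HNE, against 157 in non-treated embryos. The single-strand photolyase gene *cry-dash* (2.37), the nuclear receptor gene *nr1d4b* (2.21) and the cryptochrome gene *cry2b* (2.15) complete the 6 largest changes. The most abundant members differed less: *cry2a* had a ratio of 1.07, *bhlhe40*, a clock repressor, one of 1.33, and *tefa*, a D-box activator, was called at 1.64. Against the HNE library 2 genes of the list were called higher after HDE, *cry4* (1.59) and *cry3* (1.55), and 1, the clock repressor gene *bhlhe41*, lower (0.483). Of all genes, 2.30% were called higher and 1.21% lower than after HNE. The list's median was 0.34 after HNE, against the same non-treated library.

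The list of ultraviolet and DNA damage genes had 7 of 28 members called higher, against 2.77% of all genes, and 0 lower, at a median of 0.34. *lonrf1l* (ENSDARG00000078567), a RING finger gene, had 891 counts after HDE and 1530 after HNE, against 181 in non-treated embryos, and *ddb2* (ENSDARG00000041140), which recognizes ultraviolet lesions for excision repair, had 218 counts after HDE and 304 after HNE, against 80 in non-treated embryos. In both, HDE was above non-treated, with ratios of 5.62 (95% interval 4.78 to 6.63) and 3.11 (2.4 to 4.07), and *lonrf1l* was called lower after HDE than after HNE. Other members of the list stood in another order. *mdm2*, a ubiquitin ligase gene, had 1188 counts after HDE and 650 after HNE, against 871 in non-treated embryos, so that HDE was highest and HNE lowest, and its ratio of HDE to HNE was 2.06 (95% interval 1.88 to 2.28, with an adjusted p of 5.42e-50 in the exact binomial test). The same order held for the cell cycle inhibitor gene *cdkn1a* (72 after HDE and 31 after HNE, against 44 in non-treated embryos), for the proapoptotic gene *bbc3* (87 after HDE and 37 after HNE, against 53 in non-treated embryos) and for *casp8* (151 after HDE and 98 after HNE, against 104 in non-treated embryos). The differences of HNE from non-treated were under 1.5-fold and so not called. For *cdkn1a*, *bbc3* and *casp8* they rest on few counts, so the place of HNE below non-treated is uncertain there. The log2 ratios of HNE to non-treated were -0.41 for *mdm2*, -0.49 for *cdkn1a*, -0.50 for *bbc3* and -0.07 for *casp8*. *mdm2*, *cdkn1a*, *bbc3*, *casp8* and *sesn3* (1000 after HDE and 724 after HNE, against 741 in non-treated embryos), an inhibitor of TOR signalling, were called higher than after HNE. They were 5 members of the list in all, against 2.30% of all genes. The abundant members *ccng1* and *gadd45gb.1* had ratios of 1.26 and 0.914, neither called. In the apoptosis list, which shares *bbc3* and *casp8* with this one, 4 of 30 members were called higher, against 2.77% of all genes, and 0 lower. The others were the initiator caspase gene *casp9* (1.69) and *mcl1b* (1.57), a survival factor, while the executioner gene *casp3a* had a ratio of 0.901 and was not called.

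**Figure D2:**
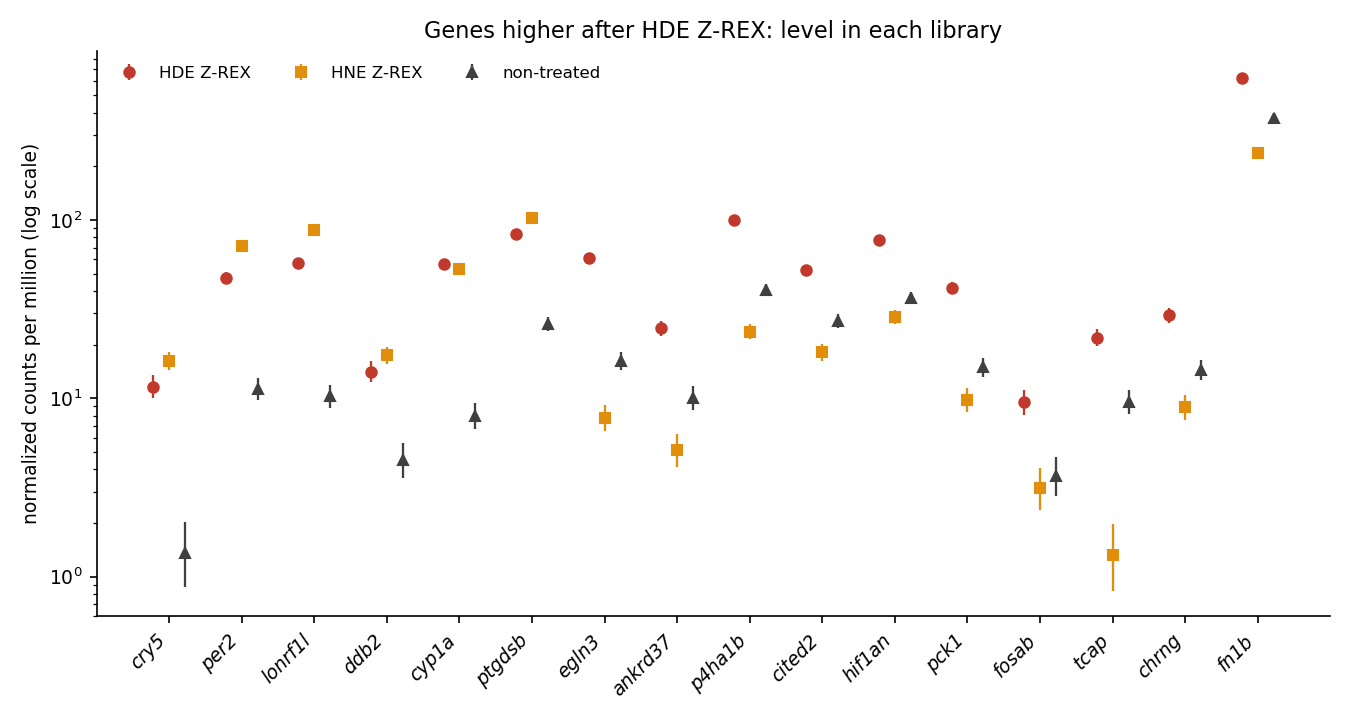
The level of 16 genes called higher after HDE is shown in the HDE, HNE and non-treated libraries (normalized CPM, log scale), with bars for exact 95% Poisson intervals of the count. For cry5, per2, lonrf1l, ddb2, cyp1a and ptgdsb both Z-REX libraries lie above the non-treated one, whereas from egln3 to fn1b the HDE library alone does.

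The aryl hydrocarbon receptor is a ligand-activated factor that induces cytochrome P450 genes of family 1. *cyp1a* (ENSDARG00000098315) had 873 counts after HDE and 930 after HNE, against 141 in non-treated embryos, with a 7.06-fold difference between HDE and non-treated (95% interval 5.91 to 8.5, with an adjusted p of 6.21e-149 in the exact binomial test). Its ratio of HDE to HNE was 1.06, with an interval of 0.966 to 1.17. Of the 10 genes of the list, only *cyp1c2* was also called, at 129 counts after HDE, 110 after HNE and 86 in the non-treated library. Of all genes, 2.77% were called higher. The abundant members *sox9b* and *cyp1d1* had ratios of 1.1 and 0.957, and *tiparp*, which modifies the receptor, had one of 1.37. Among 6 genes of the receptor complex, *arnt*, its dimerization partner, was called at a ratio of 1.6. In 50 further P450 genes 2 were called higher and 5 lower, where 2.77% of all genes were higher and 1.49% lower. Most of the lower calls were cyp2aa genes. The other cyp2aa genes of the list were not called, with log2 ratios from -0.45 to 0.10. *cyp2aa3* had 734 counts after HDE and 1337 after HNE, against 1364 in non-treated embryos (ratio 0.614), and its relatives *cyp2aa7* (0.516) and *cyp2aa12* (0.607), both with divided reads, and *cyp2aa2* (0.632) were lower too, while the most abundant member, *cyp2aa8*, was at 0.809 and not called. *CYP27B1*, which makes active vitamin D, was also called lower (12 after HDE and 45 after HNE, against 37 in non-treated embryos). Of the higher calls, *cyp24a1*, which degrades active vitamin D, had 79 counts after HDE and 55 after HNE, against 46 in non-treated embryos.

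Genes induced by low oxygen included 9 of 37 that were higher after HDE, against 2.77% of all genes. In cells with enough oxygen, prolyl hydroxylases mark the HIF alpha subunits for capture by the Vhl protein, and when oxygen is short HIF drives its targets, some of which feed back on HIF itself. None of the list was called lower, and its median log2 ratio was 0.30 after HDE and -0.06 after HNE. Against the HNE library 10 members were called higher after HDE, where 2.30% of all genes were, and 1 lower, where 1.21% were. The lower one was *higd1a*, a mitochondrial gene (206 after HDE and 352 after HNE, against 242 in non-treated embryos). *egln3* (ENSDARG00000032553), a HIF prolyl hydroxylase gene, had 943 counts after HDE and 136 after HNE, against 286 in non-treated embryos. It was 3.76-fold higher after HDE than without treatment (95% interval 3.29 to 4.31) and 7.83-fold higher than after HNE (6.54 to 9.45). *p4ha1b* (ENSDARG00000071082), a collagen prolyl hydroxylase gene, had 1554 counts after HDE and 413 after HNE, against 718 in non-treated embryos, and the ankyrin repeat gene *ankrd37* (ENSDARG00000056376) had 382 counts after HDE and 90 after HNE, against 178 in non-treated embryos. In *egln3*, *p4ha1b* and *ankrd37* the non-treated library lay between the HDE library, which was highest, and the HNE library, and both differences from it were called. The remaining called members were *igfbp1b* (ratio 3.42, on 24 counts after HDE and 8 in the non-treated library), an inhibitor of insulin-like growth factors, *cited2* (1.93), which competes with HIF for a coactivator, *ddit4* (1.68), an inhibitor of the TOR kinase, the glycolysis regulators *pfkfb3* (1.59) and *pfkfb4a* (1.56) and *vhl* (1.53). The HIF alpha genes themselves, *hif1al* and *hif1ab*, were the most abundant members beside *ddit4* and had ratios of 1.06 and 0.921. Outside the list, and chosen after their values were seen, *hif1an*, the asparagine hydroxylase of HIF, had 1191 counts after HDE and 500 after HNE, against 646 in non-treated embryos, and *wsb1*, whose human counterpart is a ubiquitin ligase for VHL, had 3659 counts after HDE and 1933 after HNE, against 2098 in non-treated embryos. Of 33 glycolysis enzyme genes, 1 (*pfkpb*) was called higher and 1 lower, where 2.77% of all genes were higher and 1.49% lower, at a median of 0.01. *gapdh*, the most abundant of them, had a ratio of 1.07.

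*pck1* (ENSDARG00000013522), the first committed enzyme gene of gluconeogenesis, had 640 counts after HDE and 172 after HNE, against 264 in non-treated embryos, with a 2.77-fold difference (95% interval 2.39 to 3.2), and the HNE library was the lowest. The glucose 6-phosphatase genes *g6pca.1* (2.35) and *g6pca.2* (1.5) were called higher and *fbp2*, a fructose bisphosphatase gene, lower (0.66). That made 3 higher and 1 lower of 26 genes of the gluconeogenesis and fuel switch list, where 2.77% of all genes were higher and 1.49% lower. The list had a median log2 ratio of 0.01. The sign of this median changed with the setting, as did that of the glycolysis list. The abundant *ucp2*, *fbp1b*, with divided reads, and *hadhb* had ratios of 0.824, 0.784 and 0.935 and were not called. Further genes were chosen after their values were seen. Among them *znf395a* had 3646 counts after HDE and 1574 after HNE, against 1885 in non-treated embryos, *mknk2b*, a kinase of the translation factor eIF4E, had 4546 counts after HDE and 2231 after HNE, against 2847 in non-treated embryos, and *ppp1r15a*, which restarts translation by dephosphorylating eIF2, had 1429 counts after HDE and 516 after HNE, against 741 in non-treated embryos. In each of these the HDE library was highest and the HNE library lowest, though HNE was less than 1.5-fold below non-treated and so not called. *ypel3* (1.95), *pik3ip1* (1.56), an inhibitor of PI3 kinase, *txnipa* (1.52), an inhibitor of glucose uptake, and *GABARAPL1* (1.71), a component of autophagosomes, were called higher as well.

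In lipid metabolism *srebf1* (ENSDARG00000067607), a regulator of sterol and fatty acid synthesis, had 206 counts after HDE and 236 after HNE, against 98 in non-treated embryos, with a ratio of 2.4, and the cholesterol synthesis enzyme gene *msmo1* had 85 counts after HDE and 76 after HNE, against 46 in non-treated embryos. They were the only 2 of 27 genes of the cholesterol synthesis list called, where 2.77% of all genes were higher. The abundant *fdps*, a prenyl synthase gene, was at a ratio of 0.701 and not called. In fatty acid synthesis, the desaturase genes *scd* (20 counts after HDE against 7 without treatment) and *fads2* (1.58) were called higher among 17 genes, against 2.77% of all genes. The elongase gene *elovl6* had a ratio of 0.741. The cholesterol exporter gene *abca1a* had 889 counts after HDE and 720 after HNE, against 486 in non-treated embryos, with a ratio of 2.09 (95% interval 1.87 to 2.34). Beside the *abcb6a* gene of the study's own table it was the only transporter called among 40 ABC genes, so that 2 of 40 were higher, against 2.77% of all genes.

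Immediate early genes, which respond within minutes to growth factors and mechanical stress, had 7 of 39 members called higher, against 2.77% of all genes, and 0 lower. Higher than after HNE were 10 of them, against 2.30% of all genes. *fosab*, a component of AP-1, had 147 counts after HDE and 55 after HNE, against 65 in non-treated embryos, at the more abundant of 2 genes listed under the name, with a ratio of 2.58 (95% interval 1.91 to 3.51). *fosl2* and *junba*, further AP-1 components, had ratios of 1.81 and 2.05, and the matricellular genes *ctgfb* (2.26), *cyr61l1* (1.87) and *cyr61* (1.69), targets of Yap, followed. The abundant *ier5*, *btg2* and *dusp1*, also early response genes, had ratios of 0.977, 1.14 and 0.959 and were not called. The matricellular gene *ctgfa* was the most abundant called member, with 2311 counts after HDE and 1802 after HNE, against 1599 in non-treated embryos. In extracellular matrix turnover, 4 of 46 genes were called higher, against 2.77% of all genes, and 0 lower. *fn1b* (ENSDARG00000006526), a fibronectin gene, had 9670 counts after HDE and 4169 after HNE, against 6569 in non-treated embryos, with a ratio of 1.68 (95% interval 1.63 to 1.73) and the lowest value after HNE. The collagenase gene *mmp13a*, the gelatinase gene *mmp9* and the inhibitor gene *timp2b* had ratios of 1.73, 1.6 and 1.59. Of 51 collagen genes 0 was called in either direction, where 2.77% of all genes were higher and 1.49% lower.

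Cytosolic chaperones help proteins fold and are induced by heat through Hsf1. Of 30 heat shock genes, 10 were called lower after HDE and 2 higher, where 1.49% of all genes were lower and 2.77% higher. The median log2 ratio was -0.34 after HDE and -0.15 after HNE, and 24 of the 30 had a ratio below 1. *hsp70.3* (ENSDARG00000021924), an inducible Hsp70 gene, had 148 counts after HDE and 455 after HNE, against 505 in non-treated embryos, with a ratio of 0.334 (95% interval 0.277 to 0.402). *ahsa1a* (ENSDARG00000028664), the activator of the Hsp90 ATPase, had 40 counts after HDE and 177 after HNE, against 140 in non-treated embryos, with a ratio of 0.326 (0.223 to 0.466). In both the HDE library stood apart from the other 2, and both were called lower than after HNE, at ratios of HDE to HNE of 0.368 and 0.255. The hsp70 copies are near identical, and summed over *hsp70.1*, *hsp70.2*, *hsp70.3* and *hsp70l* there were 284 counts after HDE and 767 after HNE, against 887 in non-treated embryos, with a ratio of 0.365 (95% interval 0.318 to 0.418). The Hsp90 genes *hsp90aa1.1* and *hsp90aa1.2* both had divided reads and together had 7396 counts after HDE and 12425 after HNE, against 18305 in non-treated embryos, with a ratio of 0.461. The constitutive genes *hspa8* and *hsp90ab1*, the most abundant of the list, had ratios of 0.893 and 0.891 and were not called. The small heat shock gene *hspb9* went the other way, with 662 counts after HDE and 193 after HNE, against 376 in non-treated embryos, and so did *hspb11* (ratio 1.75). Of 67 chaperonin and DnaJ genes, 7 were called lower (5 when libraries were scaled by total counts), against 1.49% of all genes. The 1 called higher was *dnajc4*, where 2.77% of all genes were higher. The Hsp70 cochaperone genes *DNAJA4* (0.499) and *dnaja1* (0.608) were lower, whereas the chaperonin subunit genes *CCT2* and *cct8* had ratios of 1.02 and 0.944 and were not called.

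The endoplasmic reticulum list had 8 of 27 genes called lower, against 1.49% of all genes, and 0 higher, at a median of -0.37. *hspa5* (ENSDARG00000103846), the lumenal Hsp70 known as BiP, had 6309 counts after HDE and 9394 after HNE, against 11420 in non-treated embryos, with a ratio of 0.63 (95% interval 0.611 to 0.65). *hsp90b1* (ENSDARG00000003570), its Hsp90 partner, had 4721 counts after HDE and 7233 after HNE, against 9313 in non-treated embryos, with a ratio of 0.578. In both genes the HNE library lay between the others. The BiP cochaperone genes *dnajb9b* (0.506), *dnajc3a* (0.554) and *dnajb11* (0.62), the secreted stress factor genes *creld2* (0.592) and *manf* (0.619) and *hyou1* (0.639) complete the called members. The 3 dnaj genes among them also count among the 7 lower genes of the chaperonin and DnaJ list. Another of those 7 counts among the lower heat shock genes. *dnajb9b* and *dnajb11* were also called lower than after HNE. In the heat shock list, *serpinh1b* (ENSDARG00000019949), the collagen chaperone of this compartment known as Hsp47, had 7402 counts after HDE and 10769 after HNE, against 16097 in non-treated embryos, with a ratio of 0.525. Of 39 proteasome genes 0 was called, near the 2.77% higher and 1.49% lower of all genes. Their median log2 ratio was -0.06, a value whose sign changed with the setting. Of 33 genes of the ATF4 and amino acid list, 2 were called, *ddit4* and *eif4ebp3* (1.54), both higher, where 2.77% of all genes were higher. The abundant *atf4a*, *atf4b* and *eif4ebp1* were at ratios of 0.945, 0.838 and 0.984.

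**Figure D3:**
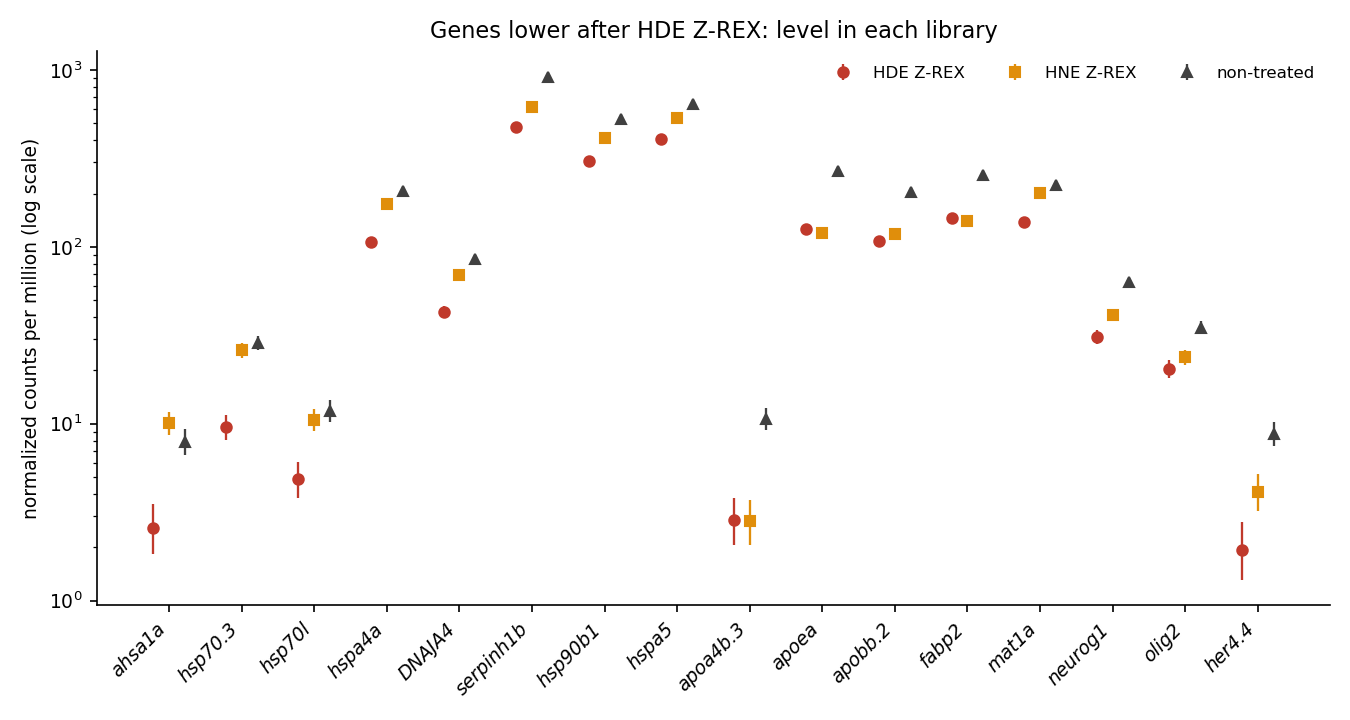
The level of 16 genes called lower after HDE is shown in the HDE, HNE and non-treated libraries (normalized CPM, log scale), with bars for exact 95% Poisson intervals of the count. The chaperone genes from ahsa1a to hspa5 are lowest after HDE. The apolipoprotein genes apoa4b.3 and apoea and the fatty acid carrier gene fabp2 have like levels in both Z-REX libraries.

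Of 38 genes of lipid export and plasma proteins, 5 were called lower, against 1.49% of all genes, and 0 higher, with a median log2 ratio of -0.30. A ratio below 1 was found in 32 of the 38. At this age such genes are known to be transcribed in the yolk syncytial layer. In bulk RNA of whole embryos such as these, fewer cells of a type and less RNA per cell cannot be told apart. *apoea* (ENSDARG00000102004), an apolipoprotein E gene, had 1958 counts after HDE and 2106 after HNE, against 4753 in non-treated embryos, with a ratio of 0.47 (95% interval 0.446 to 0.495). *apobb.2* (ENSDARG00000075016), an apolipoprotein B gene, had 1674 counts after HDE and 2072 after HNE, against 3606 in non-treated embryos, with a ratio of 0.53. Both Z-REX libraries lay well under the non-treated one, and the ratio of HDE to HNE was 1.05 for *apoea* and 0.913 for *apobb.2*. Summed over *apoa4b.1*, *apoa4b.2* and *apoa4b.3*, of which the first pair had divided reads, there were 8292 counts after HDE and 9090 after HNE, against 17996 in non-treated embryos, with a ratio of 0.526. The most abundant members *apoa2* (0.77), *apoa1a* (0.684) and *apoa1b* (0.805), the main apolipoproteins of high-density particles, were not called. In the endoderm list, *fabp2*, a fatty acid carrier of the gut, had 2267 counts after HDE and 2460 after HNE, against 4482 in non-treated embryos (ratio 0.577), and *ins*, insulin, had 65 counts after HDE and 122 after HNE, against 116 in non-treated embryos. Chosen after their values were seen, *afp4* (0.563, for 1 of 2 genes of the name), *mat1a* (0.616), which makes S-adenosylmethionine, and *serpinc1* (0.652), antithrombin, were called lower as well.

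All 9 embryonic globin genes had ratios below 1, at a median log2 ratio of -0.48 after HDE and -0.55 after HNE. The 3 that were called lower, where 1.49% of all genes were, had divided reads. The most abundant, *hbae3*, had 9994 counts after HDE and 10405 after HNE, against 15385 in non-treated embryos, with a ratio of 0.741 that was not called. Of 29 heme and iron genes and 21 genes of the red cell membrane and nucleus, 0 was called, near the 2.77% higher and 1.49% lower of all genes. The red cell enzyme gene *alas2*, which starts heme synthesis, had a ratio of 0.905. The 13 transcripts of the mitochondrial genome were likewise all below 1, with a median of -0.44, and 0 was called, again near the shares of all genes. They made up 2.49% of the counts after HDE, 2.4% after HNE and 2.96% in the non-treated library.

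In skeletal muscle the actin genes were lower. *acta1b* (ENSDARG00000055618) had 22847 counts after HDE and 34342 after HNE, against 42718 in non-treated embryos, with a ratio of 0.61 (95% interval 0.6 to 0.62), and *acta1a* had 6086 counts after HDE and 11524 after HNE, against 13296 in non-treated embryos, with a ratio of 0.522. The pair shares much sequence, and summed there were 28933 counts after HDE and 45866 after HNE, against 56014 in non-treated embryos, with a ratio of 0.589. These were 2 of 3 calls, all lower, among 46 fast muscle genes, with the troponin gene *tnni2b.2* (0.559) as the other. A ratio below 1 was found in 39 of the 46, at a median log2 ratio of -0.17. Of all genes, 1.49% were called lower. The calcium pump gene *atp2a1*, with 180732 counts after HDE and 219150 after HNE, against 208047 in non-treated embryos, was at a ratio of 0.991, and tropomyosin *tpma* and parvalbumin *pvalb2* were at 0.856 and 0.893. In the heart list 4 of 31 genes were called higher, against 2.77% of all genes, and 0 lower. Higher than after HNE were 8 of the 31, against 2.30% of all genes. *tcap* (ENSDARG00000007344), a titin-binding protein of the Z-disc in heart and trunk muscle, had 339 counts after HDE and 23 after HNE, against 168 in non-treated embryos, with a ratio of 2.3 to non-treated (95% interval 1.91 to 2.79) and of 16.7 to HNE (10.9 to 26.6). *ankrd1a* (1.68) and *xirp1* (1.68), stress-responsive genes of striated muscle, and *tbx5a* (1.96), a heart and fin factor, followed, while the cardiac sarcomere genes *actc1a* and *cmlc1* and the intermediate filament gene *desma* were at 0.827, 0.974 and 1.07 and not called. Chosen after its values were seen, *chrng*, the fetal acetylcholine receptor subunit of muscle, had 451 counts after HDE and 156 after HNE, against 255 in non-treated embryos, with HDE highest and HNE lowest.

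In the nervous system, proneural genes, which drive progenitors towards neurons, had 3 of 22 members called lower and 0 higher. With libraries scaled by total counts 2 were lower, and of all genes 1.49% were called lower. *neurog1* (ENSDARG00000056130) had 478 counts after HDE and 723 after HNE, against 1111 in non-treated embryos, with a ratio of 0.491 (95% interval 0.44 to 0.547), and *olig2*, a factor of motor neuron and oligodendrocyte progenitors, and *ascl1b* had ratios of 0.583 and 0.661. In the 3 genes the HNE library lay between the others and was not called different from the HDE library. The abundant *neurod4*, *insm1a* and *insm1b*, which act later, were at 0.837, 0.908 and 0.922. Of 44 Notch pathway genes, 5 were called lower (3 when libraries were scaled by total counts), against 1.49% of all genes. The ligand gene *JAG2 (1 of 2)* (19 counts after HDE against 6 without treatment) was the 1 called higher, against 2.77% of all genes. *her4.4* (ENSDARG00000009822), a Notch target, had 30 counts after HDE and 72 after HNE, against 155 in non-treated embryos, with a ratio of 0.221, and its tandem copies *her4.1* (0.558) and *her4.3* (0.651), the second with divided reads, and the related *hes2.2* (0.597) and *hes2.1* (0.636) were lower. Whether reads of near-identical her4 copies were assigned to one another was not tested. The receptor gene *notch1a* had a ratio of 1.17 and its modifier *lfng* one of 1.26, neither called, and of 37 genes of differentiated neurons 0 was called. The hatching enzyme gene *he2* had 20 counts after HDE and 34 after HNE, against 100 in non-treated embryos, the only call among 7 hatching gland genes, where the abundant *he1a* was at 0.866, with divided reads.

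**Figure D4:**
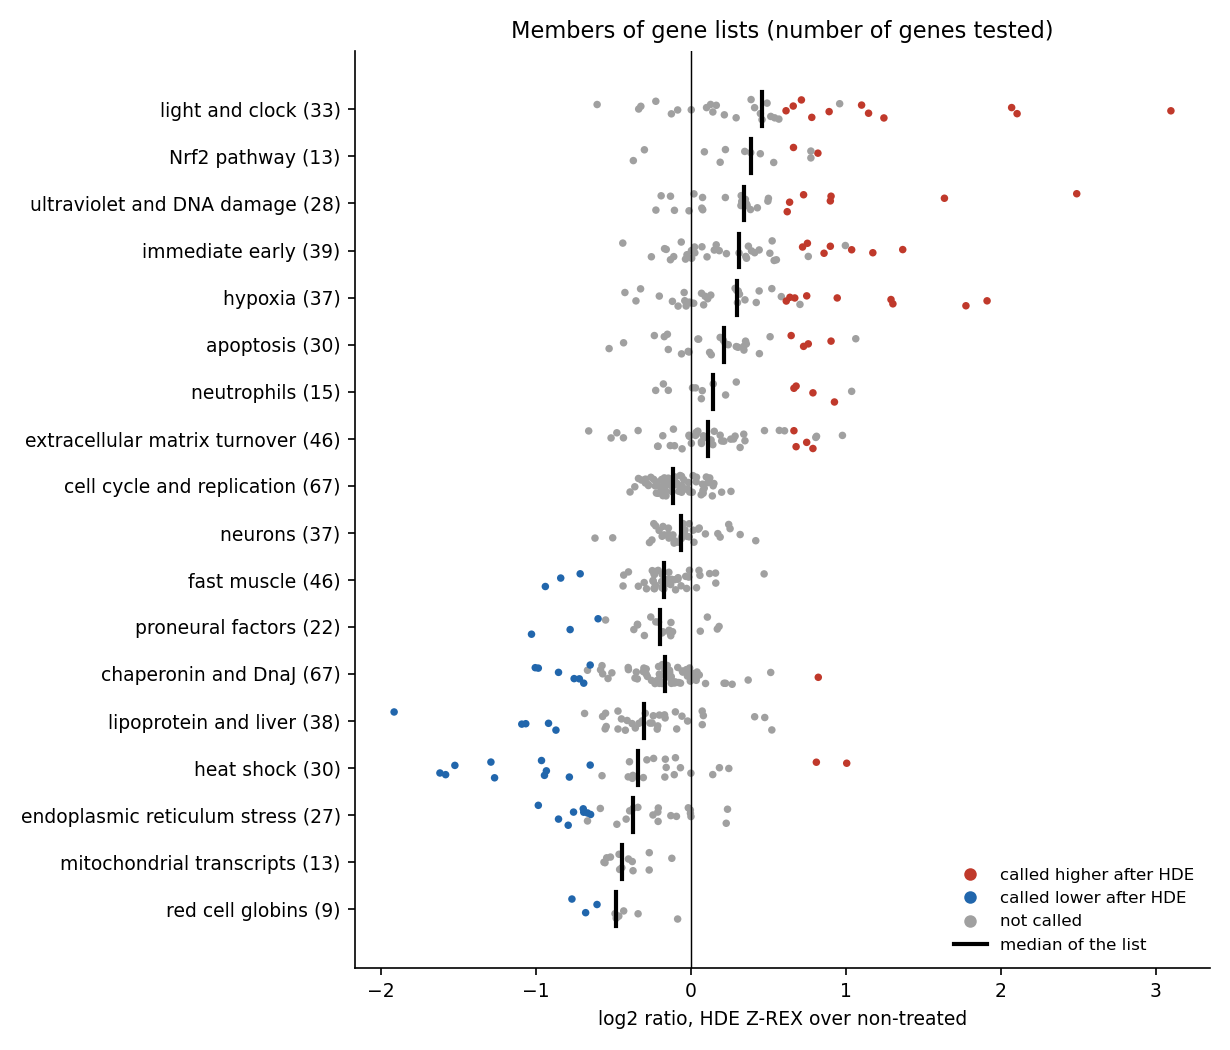
Each point is a gene of a list, plotted by its log2 ratio, HDE Z-REX over non-treated, with the number of genes tested in parentheses and a bar at the median. Among the lists drawn, light and clock genes reach the highest ratios, and the medians of the chaperone, lipoprotein, mitochondrial and globin lists lie below 0.

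The Keap1 and Nrf2 pathway itself had a median log2 ratio of 0.39 over 13 genes. Of these, 2 were called higher (4 when libraries were scaled by total counts), against 2.77% of all genes, and 0 lower. Both of the 2 were genes of Bach1, the repressor that competes with Nrf2. *bach1a* had 178 counts after HDE and 89 after HNE, against 115 in non-treated embryos. *bach1b* had 272 counts after HDE and 196 after HNE, against 196 in non-treated embryos, and both were called higher than after HNE. The abundant Nrf-family gene *nfe2l3* was at a ratio of 0.774, the small Maf gene *maff* at 1.27 and *keap1b* at 1.31, none called. Among 22 Nrf2 targets outside the study's table the only call was *sqstm1*, an autophagy receptor that binds Keap1, with 679 counts after HDE and 603 after HNE, against 463 in non-treated embryos (ratio 1.67, 95% interval 1.49 to 1.89). A count of 1 of 22 is near the 2.77% of all genes called higher. The ferritin gene *fth1a* and the pentose phosphate genes *tktb* and *TALDO1*, the most abundant of these targets, had ratios of 0.946, 0.872 and 0.91. In the list of aldehyde and carbonyl enzymes 5 of 46 were called higher, against 2.77% of all genes, and 0 lower. Beside the tabulated *cbr1*, these were 4 short-chain dehydrogenase genes, *dhrs13l1* with 345 counts after HDE and 405 after HNE, against 160 in non-treated embryos, *dhrs13a.3* (1.75), *dhrs9* (1.75) and *dhrs12* (1.51). The abundant dehydrogenase genes *aldh9a1a.1*, with divided reads, *adh5* and *adh8b* were at 0.955, 1.06 and 0.873. No glutathione transferase other than *gstp1* was called among 14. Of 33 glutathione peroxidases and antioxidant enzymes 1 was called lower, where 1.49% of all genes were. It was the extracellular superoxide dismutase gene *sod3a*, at 98 counts after HDE, 180 after HNE and 198 in the non-treated library.

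Of 15 neutrophil genes, 4 were called higher, where 2.77% of all genes were, namely *mmp13a*, *mmp9*, *timp2b* and *ncf1*, a subunit of the NADPH oxidase (45 after HDE and 14 after HNE, against 27 in non-treated embryos). The first 3 also count among the calls of extracellular matrix turnover. Whether neutrophils are the source of the first 3 transcripts in whole embryos was not tested, and the defining genes of the type, *lyz*, *mpx* and *npsn*, had ratios of 0.855, 0.885 and 1.05 to the non-treated library and were not called. All 3 of them were called higher after HDE than after HNE, with ratios of 1.74, 1.61 and 1.88. In 26 genes shared by leukocytes the oxidase gene *cyba* (1.7) was the only call, again near the share of all genes. Of 24 macrophage genes, *cd74a* was called higher, on 15 counts after HDE, 22 after HNE and 1 in the non-treated library, at 17.1 times the non-treated level with an interval of 2.63 to 720, and *mafbb*, with divided reads, lower. The macrophage list was at a median log2 ratio of -0.04, which changed sign with the setting, and the shared list was at 0.04. No cell cycle and replication gene was called among 67, none of 21 retinoic acid genes, none of 17 Fgf targets, none of 33 kidney genes and none of 19 ionocyte genes. Of all genes, 2.77% were called higher and 1.49% lower.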

How the data were processed

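RNA-seq libraries of whole zebrafish embryos, 1 each for HDE Z-REX, HNE Z-REX and non-treated, were used. The kit kept the strand. The authors trimmed the 81 nt reads with cutadapt 1.8 and mapped them to GRCz10 with TopHat2 2.1. The expected counts per gene, deposited by the authors without scaling between libraries, are fractional for 913 genes. The counting tool is not given in the sources used here. The counts were rounded to whole numbers here. The deposited FPKM values were made by the authors with Cufflinks 2.2 and served as an alternative (log2 with a pseudocount of 0.1 or 1) and to rank members by abundance.

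TMM factors (edgeR 4.0.16, R 4.3.3) scaled the library sizes, over the 18563 genes whose counts averaged 10 or more. For each gene, the share of its counts that fell in one library of the 2 was tested against the share of the sizes (binomial test, exact and two-sided, scipy 1.17.1), with Benjamini-Hochberg adjustment over all 18563. A fold against 0 counts is a lower bound against a floor of 3 counts per library. The scripts were first run on simulated data. With 1 library per condition no spread between replicates could be estimated, so p-values and intervals measure counting error only, and depth limits genes of low counts.

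The genes named are the 20 largest rises and the 20 largest falls among called genes whose counts were whole and reached 50 in the higher library, and, of each list described, the 3 most abundant members and up to 6 called members with the largest change. The 10 genes that the study itself tabulated are named only where a sentence needs them, and other genes, cell type markers apart, were chosen after their values were seen. Some members of the lists are not reported here. The 88 gene lists and the genes compared were chosen with earlier results of these data known, and lists carry no test. Gene names are those of the files, with a reference table of symbols matching 17570 of 18563 IDs. Positions are not given, since the builds of the files and the reference differ. Alternatives were size factors of DESeq2 1.42.0, total counts, total counts less the 20 most abundant genes, other filters and fold limits, and edgeR's exact test with an assumed coefficient of variation. Figures were drawn with matplotlib 3.10.9.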

Additional observations from a re-analysis of the deposited data

Results flagged for a closer look

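The same contrast with the non-treated library had opposite directions after the 2 electrophiles for 15 genes, each of them called in both contrasts and called different between the HDE and HNE libraries by the exact binomial test. The contrasts share the non-treated library, and a value of that library between the other 2 is what the selection asks for. 14 of the 15 were higher after HDE and lower after HNE than without treatment, and 14 had whole counts. The log2 ratio of HDE to HNE was 4.06 for the Z-disc gene *tcap* and 2.97 for the prolyl hydroxylase gene *egln3*, with 943 counts after HDE, 136 after HNE and 286 without treatment. It was 2.91 for *si:dkey-117j14.6*, 2.26 for *ankrd37*, 2.18 for *znf423*, which had divided reads, 2.09 for *p4ha1b*, 2.07 for *pck1* and 2.05 for *CU469544.1*. It was 1.95 for *hspb9*, 1.93 for *cyr61l1*, 1.92 for *MFAP4 (9 of 14)*, 1.71 for *chrng*, 1.39 for *fn1b* and 1.2 for *bmb*. The cathepsin B gene *ctsba* went the opposite way, at -1.70, with 542 counts after HDE and 1988 after HNE, against 986 in non-treated embryos. Genes induced by low oxygen (*egln3*, *ankrd37*, *p4ha1b*) and genes of striated muscle (*tcap*, *chrng*) were among the 14. Each condition had 1 library, so the electrophile and any other difference between the libraries cannot be told apart.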

How the results depend on the processing

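The number of genes called for HDE against non-treated and for HDE against HNE stayed within 1.5 times of 791 and 651 under DESeq2 size factors (791 and 655), total counts (897 and 703), total counts without the 20 most abundant genes (892 and 686), other filters on low counts and without genes of divided reads. The share of higher genes among those called against non-treated was 65.1%, 78.6% under total counts and 77.4% without the 20 most abundant genes, while these settings moved the median log2 ratio of all genes from 0.01 to 0.07 and 0.07. A 2-fold limit left 282 genes (202 higher, 80 lower) and 248 against HNE, and no fold limit gave 3917 (1850 higher, 2067 lower) and 3093. An assumed coefficient of variation between libraries of 0.1 left 131 genes (88 higher, 43 lower) and 106 against HNE, one of 0.2 left 16 (11 higher, 5 lower) and 19, and one of 0.4 left 2 (1 higher, 1 lower) and 2. Of 165 called genes among the 227 named, 96 lost the call at 0.1 and 154 at 0.2. Under total counts 7 did (*fbp2*, *hyou1*, *ins*, *serpinc1*, *her4.3*, *hes2.1* and *ascl1b*), and *g6pca.2* did under DESeq2 size factors. No called gene among those named changed direction under the scalings or the FPKM values, but with the FPKM values the log2 ratio of 17 of the 227 fell outside its counting interval at a pseudocount of 0.1 and that of 40 at a pseudocount of 1, where *cry5* had 1.94 against 2.90 at 0.1. The tests with an assumed spread differ from the counting test by construction, and the true spread is not known with 1 library per condition. No paired analysis was possible because each group had 1 library.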

Other observations

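Signalling pathways of development held a few calls that the comparisons above did not describe. All 16 Wnt targets had ratios above 1, and 2 were called, where 2.77% of all genes were higher. They were *tcf7*, a transcription factor of the pathway (101 counts after HDE and 107 after HNE, against 67 in non-treated embryos), and *znrf3*, a ligase that removes Wnt receptors (430 after HDE and 344 after HNE, against 322 in non-treated embryos), while the abundant *ccnd1* was at a ratio of 1.1. Among 32 Bmp and Tgfb genes, the Bmp antagonist gene *nog2* was higher (1.62) and the ligand gene *bmp7a* lower (0.543), 1 call each way being near the 2.77% higher and 1.49% lower of all genes, and *id1* and *id3*, abundant direct targets, were at 1.25 and 1.41 and not called. The tight junction genes *cldnc* (1.83) and *cldn15a* (1.61) were called higher among 30 claudins, where 2.77% of all genes were higher. Both were also called higher than after HNE. The amino acid transporter gene *slc43a2b* had 4131 counts after HDE and 3818 after HNE, against 2618 in non-treated embryos, with a ratio of 1.8, the most abundant call among 85 transporters of amino acids and glucose, of which 2 were called higher and 2 lower, shares near those of all genes (5 higher and 1 lower when libraries were scaled by total counts).

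In the lysosome list, of 50 genes 0 was called higher and 2 lower, where 1.49% of all genes were lower. The 2 were *ctsba* and *ctssb.1*, a cathepsin S gene (1326 counts after HDE and 2996 after HNE, against 2760 in non-treated embryos), and both were also lower than after HNE, whereas the most abundant cathepsin gene *ctsla* was at a ratio of 0.986.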
